A study of Mus musculus with 24 samples.

Results

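Whole blood of Parp1 knockout mice taken 24 h after 6 Gy of X-rays was compared with whole blood of wild-type mice taken 24 h after 8.8 Gy. Each dose is the one that kills 50% of animals of that genotype within 30 days, so the comparison holds lethality equal and lets dose and genotype differ together. The members are the arrays titled for these conditions, 5 of knockout 6 Gy and 4 of wild type 8.8 Gy, which is 9 of the 24 arrays of the series. The knockout mice were Parp1-/- males of strain 129S/J and the wild-type mice were males of the same strain without the deletion. The other arrays are 5 knockout sham, 5 wild-type sham and 5 wild type 6 Gy, also at 24 h. Each array held the blood of 1 mouse, drawn from the heart into an RNA-stabilising solution and depleted of globin mRNA. Ages are not given in the sources used here, and neither is the part of Parp1 that the allele lacks. Genotype cannot be told apart from dose in the direct comparison.

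PARP1 is a nuclear enzyme that binds broken DNA and builds chains of ADP-ribose from NAD on itself and on nearby proteins, which brings repair factors to the break. Mice without it are sensitive to ionising radiation. In irradiated blood, circulating lymphocytes die quickly, p53 switches on genes of arrest and death in the cells that remain, and neutrophils, platelets and red cells are lost more slowly. Levels below are log2 signals relative to the 75th percentile of the same array, so 0 is a fairly bright probe and a step of 1 is a doubling. Differences are knockout 6 Gy minus wild type 8.8 Gy. In blood, fewer cells of a type and less RNA per cell cannot be told apart.

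The knockout itself was checked on its Parp1 probe, which targets the coding sequence at chr1:182530341-182530639 (mm9, across a splice junction) and is shown because the array labels rest on it.
Parp1 probe: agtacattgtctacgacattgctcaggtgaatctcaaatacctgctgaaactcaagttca
Parp1 read -1.67, -3.45, -5.01, -3.82 and -4.67 on knockout 6 Gy replicates 1 to 5, against -1.25, -1.56, -1.58 and -3.94 on wild type 8.8 Gy replicates 1 to 4. Of the knockout 6 Gy arrays, only the one labelled replicate 1 was well above background, at a level near those of wild type. Wild type 8.8 Gy replicate 4 was not above background, and its Parp1 spot lies inside a block of dim spots on that array. Because it was above background on 1 and 3 arrays, Parp1 did not pass the filter on dim probes. Fitted without that filter, it was lower by -1.64 (SE 0.54) with all arrays, and by -2.15 (SE 0.47, limma adjusted p = 0.551) without replicate 1. Knockout sham arrays read -3.81 to -2.29, not above background, and wild-type sham arrays -0.94 to -0.35, above background. Wild type 6 Gy arrays read -2.33 to -1.27, with replicates 1 and 2 not above background. The lowest of these, replicate 2, was just below knockout sham replicate 1.

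The array labelled knockout 6 Gy replicate 1 therefore goes against its label. It is also nearly equal to wild type 8.8 Gy replicate 2: over 10766 probes the SD of their log2 difference was 0.167, where the next closest of the 276 pairs of arrays had 0.262 and the median pair of the same group had 0.735. Counts over all genes are given with it (5 against 4 arrays) and without it (4 against 4). List medians, counts within lists, gene differences, responses and intervals are without it unless said otherwise, while values listed array by array include it. A block of spots on wild type 8.8 Gy replicate 4, rows 221 to 340 and columns 31 to 60 of the 532 by 85 grid, was dim: 331 of its 723 bright probes (45.8%) lay more than 2 below their median, against 0.332% elsewhere on the array. A smaller corner of knockout 6 Gy replicate 3 held 58 low probes among 83 bright ones. Genes read inside either block are named as such.

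Across the arrays, 47.3% ± 3.89 of probes were well above background in knockout 6 Gy (SD, n = 5) and 48.7% ± 6.35 in wild type 8.8 Gy (SD, n = 4). Transcripts of hepatocytes and of heart muscle varied widely between animals. The mean of 21 heart muscle markers was 3.18 on knockout 6 Gy replicate 3 and at most 0.48 on the other arrays of both groups. The mean of 46 hepatocyte markers was 4.81, -2.56, 5.82, 4.99 and -2.0 on knockout 6 Gy replicates 1 to 5, against -1.84, 4.85, 5.96 and 5.84 on wild type 8.8 Gy replicates 1 to 4, so 2 knockout arrays and 1 wild-type array were low. No array measure passed an exact two-sided permutation test between the groups (10 tests, adjusted p at least 0.929). All wild type 8.8 Gy arrays and knockout replicates 1 to 3 were scanned on the same day, and knockout replicates 4 and 5 on 2 other days.

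At equal lethality, no gene separated the genotypes past the test. Of 13915 gene names whose brightest probe was well above background on 4 or more arrays of either group, 0 (0%) had a limma adjusted p under 0.05 in either direction, with or without replicate 1. The smallest adjusted p was 0.914 over 5 against 4 arrays and 0.403 over 4 against 4. At an unadjusted p under 0.05 there were 166 higher genes (1.19%) and 160 lower genes (1.15%) with all arrays, and 424 higher (3.05%) and 306 lower (2.2%) without replicate 1. These counts rest on single arrays: without wild type 8.8 Gy replicate 1 they were 596 higher and 139 lower (5 against 3) and 838 and 218 (4 against 3), without wild type 8.8 Gy replicate 4 they were 38 and 137, and 210 and 287, and without knockout replicates 1 and 5 they were 415 and 620. The median difference was 0.03 and 0.04. The bounds this sets are gene by gene: the 95% interval lay wholly within -1 to 1 for 8159 genes (58.6%) with all arrays and for 6804 (48.9%) without replicate 1, so for the others a change of 2-fold or more is not excluded by these arrays.

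Set against their own sham groups, the irradiated groups had related responses. No scan day holds both wild type 8.8 Gy and wild-type sham, so radiation and scan day cannot be told apart in the wild-type response. In the knockout, only the 6 Gy replicate 5 shares a scan day with knockout sham arrays, namely sham replicates 1 and 2. Every response and every comparison with sham given here carries this limit. The knockout response (without replicate 1) and the wild-type response share no array, and across 13915 genes their Pearson r was 0.519 and their Spearman rho 0.404. Genes are not independent replicates, so no p is given. A response above 1 was seen for 1619 genes in the knockout and 1425 in wild type, with 874 in common, which is 54.0% of the knockout's and 61.3% of wild type's. A response below -1 was seen for 1633 genes in the knockout and 1057 in wild type, with 397 in common (24.3% and 37.6%). Opposite responses of that size were found for 2 genes higher in the knockout and 105 lower. The plot of responses shows the shared diagonal and a separate column of genes that were lower in the knockout and near 0 in wild type.

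**Figure D1:**
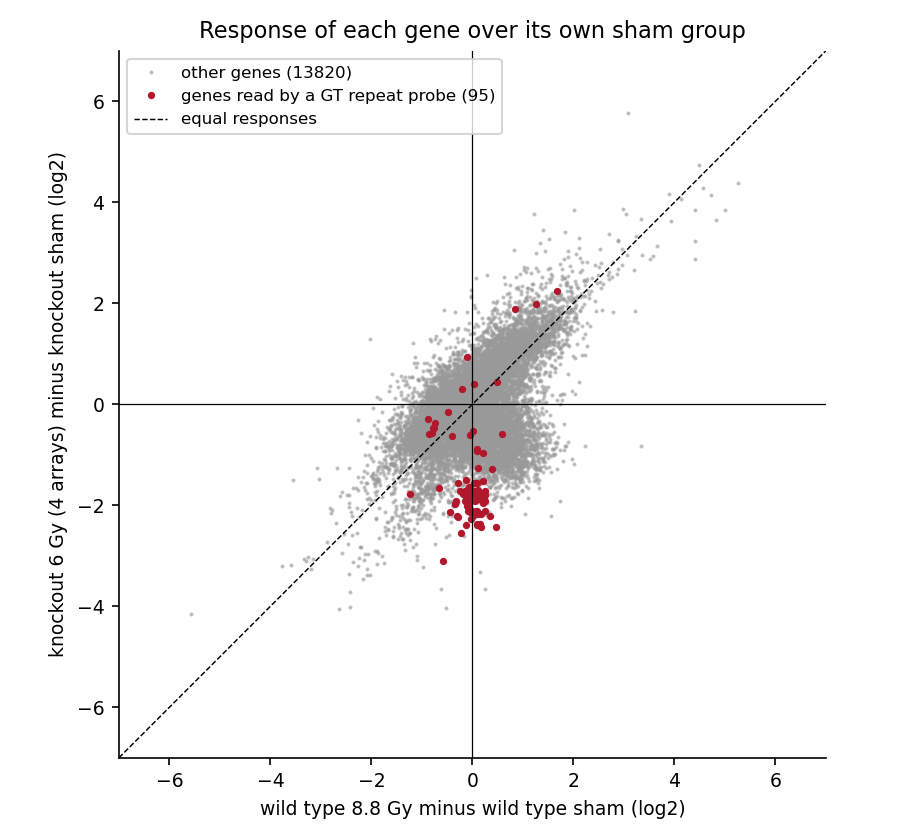
Response of each of 13915 genes over its own sham group, with knockout 6 Gy (4 arrays) minus knockout sham on the vertical axis and wild type 8.8 Gy minus wild-type sham on the horizontal axis, both in log2. Grey points are 13820 genes, and red points are 95 genes read by a probe with a GT repeat, most of which sit below 0 in the knockout and near 0 in wild type. The dashed line marks equal responses.

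Targets of p53 stood at overlapping levels in both groups, far above sham. The list holds genes of arrest, death and feedback, and 39 of its 48 genes on the array were tested. Their mean level was 1.71, 1.74, 1.54, 1.51 and 1.84 on knockout 6 Gy replicates 1 to 5, against 2.0, 1.75, 1.45 and 1.61 on wild type 8.8 Gy replicates 1 to 4. The irradiated groups overlap, and both lie above every sham array (0.13 to 0.40 in knockout sham, 0.32 to 0.38 in wild-type sham). The median difference of the list was -0.01 without replicate 1 and -0.02 with it, and -0.18 to 0.15 when 1 more array was left out. Of the list, 0 of 39 genes passed the test, and 0 were past an unadjusted p of 0.05.

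The cell-cycle inhibitor Cdkn1a (p21) had 1.62, 1.73, 1.23, 2.04 and 1.35 in knockout 6 Gy, against 1.91, 1.67, 2.31 and 2.05 in wild type 8.8 Gy. These ranges overlap, while Cdkn1a was well above background on 0 of 5 knockout sham arrays and averaged -1.91 in wild-type sham. The difference was -0.40 (95% interval -1.11 to 0.30) without replicate 1. Mdm2, the ubiquitin ligase that removes p53, differed by 0.01 (-0.51 to 0.53), the pore-forming death protein Bax by 0.18 (-0.32 to 0.68) and the cyclin Ccng1 by 0.21 (-0.38 to 0.79). For these 3, chosen after their values were seen, the interval excludes a 2-fold difference in either direction. Apaf1, which assembles the apoptosome, differed by -0.47 (-1.11 to 0.17), and Fbxw7, a ubiquitin ligase subunit, by 0.62 (-0.12 to 1.35).

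The p53 gene itself read low in both groups. Trp53 (also chosen after its values were seen) had -2.24, -2.37, -3.74, -3.52 and -3.48 in knockout 6 Gy, against -1.31, -1.72, -3.02 and -2.63 in wild type 8.8 Gy. It was well above background on 1 knockout array and on all 4 wild-type arrays, the ranges overlap, and the difference of -1.10 (-1.87 to -0.34) did not pass the adjusted test. In sham it was well above background on 0 of 5 knockout arrays and on all 5 wild-type arrays. Because it passed the filter through wild type, the difference is given as a description.

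Interferon-response genes, which sense and block viral nucleic acids, stood well above sham in both groups, at overlapping levels. The mean of 45 tested genes was 1.87, 2.70, 1.82, 2.59 and 1.75 in knockout 6 Gy, against 2.26, 1.94, 2.55 and 1.80 in wild type 8.8 Gy. All 9 arrays lie above the sham arrays (0.16 to 0.66 in the knockout, 0.29 to 0.61 in wild type). The median difference was 0.03 without replicate 1 and -0.05 with it, and -0.13 to 0.15 when 1 more array was left out, with 0 genes past the test and 0 past an unadjusted p of 0.05. Ifit3, which binds viral RNA, had 2.80, 2.85, 1.45, 2.95 and 2.34 in knockout 6 Gy, against 2.88, 2.82, 2.89 and 3.28 in wild type 8.8 Gy, a difference of -0.57 (-1.57 to 0.44). Its sham means were -1.45 in the knockout and -1.44 in wild type. The cytosolic RNA sensor Ddx58 (RIG-I) differed by 1.24 (-0.28 to 2.76), but its spot on wild type 8.8 Gy replicate 4 lies in the dim block, where it read -2.81 against 1.87 to 2.37 on the other 3 wild-type arrays. Rsad2 (viperin), in the same block, read 0.16 there and 5.36 to 7.46 on the other wild-type arrays, and its difference of 1.21 became -0.37 when the dim spots were left out.

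**Figure D2:**
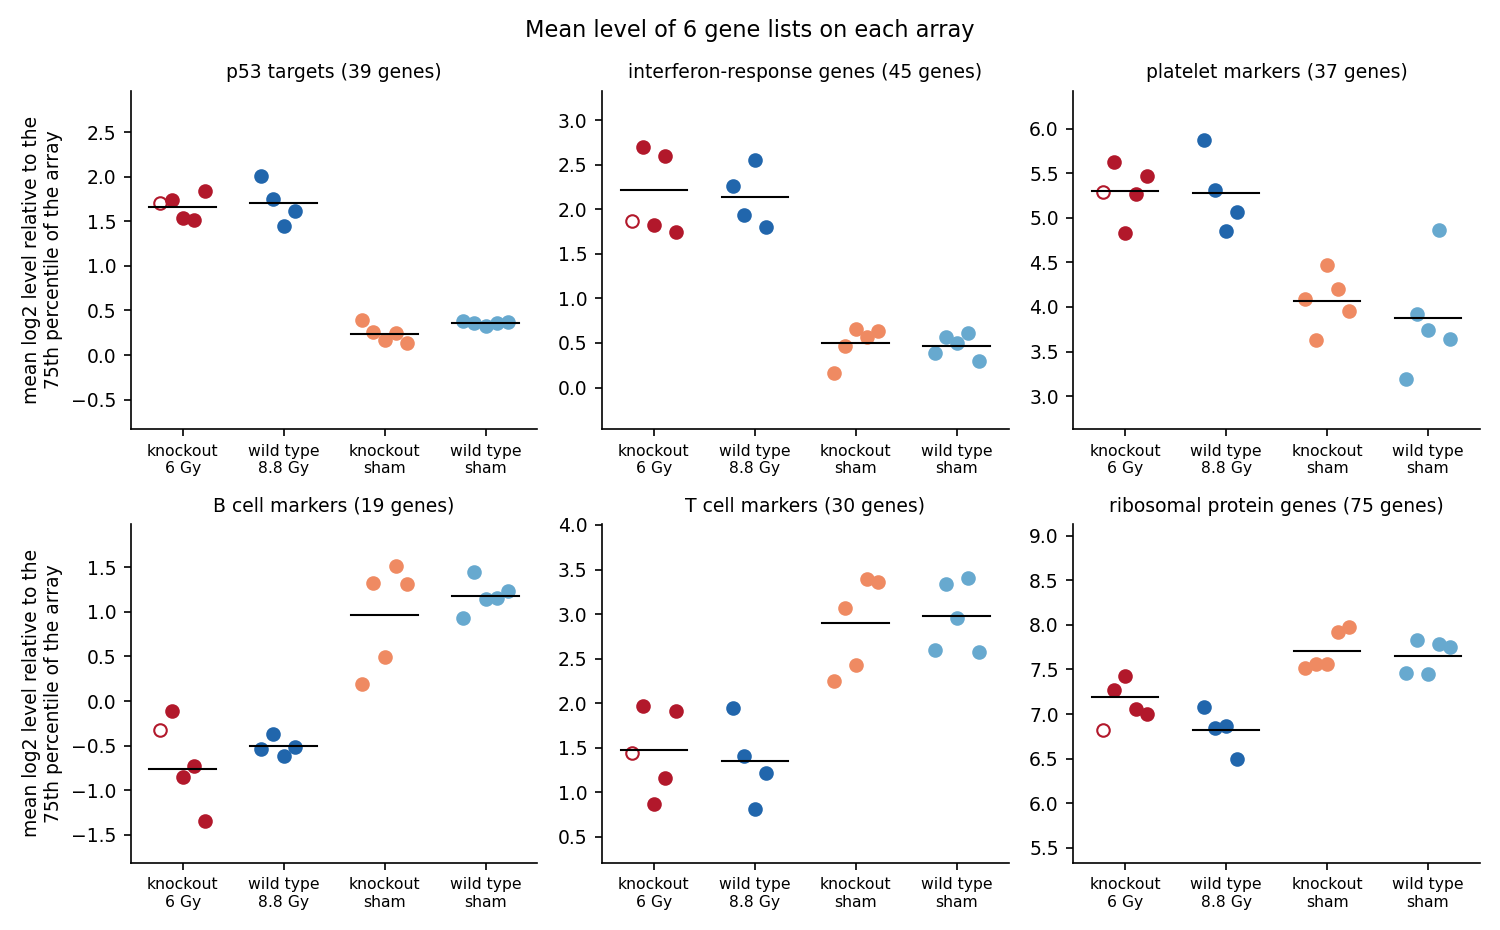
Mean log2 level, relative to the 75th percentile of the array, of 6 gene lists on each array of knockout 6 Gy, wild type 8.8 Gy, knockout sham and wild-type sham. Each point is 1 array, the open point is the array labelled knockout 6 Gy replicate 1, and the line is the group mean without it. All panels span the same height, so the p53 panel shows both irradiated groups at 1.45 to 2.0 and the sham groups at 0.13 to 0.40.

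Of the remaining PARP family members and DNA repair genes tested, 0 passed the test, and the list medians were small. Of 16 tested PARP family genes and enzymes that remove ADP-ribose, 0 passed the test and 13 had a 95% interval within -1 to 1, with a median difference of 0.06 (-0.04 to 0.15 with 1 more array left out). Tiparp, a mono-ADP-ribosyltransferase induced by the aryl hydrocarbon receptor, differed by 0.50 (-0.20 to 1.2). Parp10, another mono-ADP-ribosyltransferase, differed by 0.39 (-0.30 to 1.09), Parp6 by -0.22 (-0.64 to 0.20) and Oard1, which removes ADP-ribose from proteins, by 0.25 (-0.27 to 0.77). Of 16 tested single-strand break and base excision repair genes, 0 passed and 10 had a 95% interval within -1 to 1. Their differences ran from -1.45 to 0.51 with a median of 0.14, and 1 of these genes is read by a GT repeat probe. Of 18 tested double-strand break repair genes, 0 passed and 12 had a 95% interval within -1 to 1. The median of these 18 was -0.09 (-0.20 to 0.02 with 1 more array left out). Bard1, the partner of BRCA1, had the most negative value among those not read by a repeat probe, -0.64 (-1.50 to 0.22). Xrcc4, which holds DNA ligase IV at the break, differed by -0.39 (-1.04 to 0.26). The checkpoint adaptor Mdc1, at 0.65 (-0.21 to 1.52), is read inside the dim block on wild type 8.8 Gy replicate 4.

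B cell markers were low after both treatments, at overlapping levels. The mean of 19 tested markers was -0.32, -0.11, -0.85, -0.73 and -1.35 in knockout 6 Gy, against -0.54, -0.37, -0.61 and -0.51 in wild type 8.8 Gy. The wild-type values fall inside the knockout range, and every sham array was higher (0.19 to 1.52 in the knockout, 0.93 to 1.44 in wild type). The median difference was -0.22, with 0 of 19 past the adjusted test, and ran from -0.35 without knockout replicate 2 to -0.05 without knockout replicate 3. At an unadjusted p under 0.05 stood Cd79a, the signalling chain of the B cell receptor (-0.75, interval -1.41 to -0.08), and the inhibitory receptor Cd22 (0.45, interval 0.02 to 0.88), both read inside the dim block on wild type 8.8 Gy replicate 4. Over all genes, 2.2% were lower and 3.05% higher at that level. Cd79b, the partner chain of Cd79a, had 0.86, 1.45, 0.90, -0.04 and -1.45 in knockout 6 Gy, against -0.11, 1.05, 1.16 and 1.35 in wild type 8.8 Gy, and sham means of 3.33 in the knockout and 4.16 in wild type. Its lowest value came from replicate 5, and its difference of -0.65 (-1.90 to 0.60) turned to 0.31 within the shared scan day (2 against 4 arrays without replicate 1).

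Immunoglobulin chain probes, a group picked after the values were seen, were mostly below 0. Of 44 tested, 41 were below 0 and 21 were lower at an unadjusted p under 0.05 (2.2% of all genes were), 0 passed the adjusted test, and the median difference was -0.81 without replicate 1 and -0.62 with it. With normexp background correction the medians were -0.42 for all 44 and -0.45 for the kappa probes, in place of -0.81 and -1.03. Kappa light-chain probes held 17 of the 21. The mean of the 26 kappa probes was -0.99, -1.29, -2.77, -2.36 and -2.03 in knockout 6 Gy, against -0.80, -0.99, -1.15 and -1.42 in wild type 8.8 Gy. Knockout replicates 3 to 5 lie below all wild-type arrays, and replicates 1 and 2 do not. The kappa constant region, listed under ENSMUST00000103410 and described so in the files, had 3.93, 4.05, 2.41, 2.45 and 2.62 in knockout 6 Gy, against 4.17, 3.97, 4.38 and 4.36 in wild type 8.8 Gy, a difference of -1.34 (-2.11 to -0.56). The same direction was present without radiation: the median of the 44 was lower by 0.67 in knockout sham than in wild-type sham, and the median of the interaction was -0.32. For the 26 kappa probes the median sham difference was -0.93 and the median of the interaction -0.25. Mzb1, a chaperone of plasma cells, differed by -0.87 (-1.45 to -0.29), the lowest of 12 tested plasma cell genes, a list also chosen after the values were seen. Their median was -0.24 with 3 above 0, and within the shared scan day it was 0.02 with 7 above 0. Probes to variable segments can read their near-identical relatives, so single segments are uncertain.

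T cell markers were low after both treatments, at overlapping levels. The mean of 30 tested markers was 1.45, 1.97, 0.87, 1.16 and 1.91 in knockout 6 Gy, against 1.95, 1.41, 0.81 and 1.22 in wild type 8.8 Gy, with overlapping ranges and all sham arrays above them. The median difference was 0.18, running from -0.03 without wild type 8.8 Gy replicate 3 to 0.40 without wild type 8.8 Gy replicate 1. Of the 30, 0 passed, and 1 in each direction had an unadjusted p under 0.05 (3.05% of all genes were higher and 2.2% lower). The one on the higher side was Dapl1, found in naive T cells, with -2.93, -0.73, -2.28, -1.70 and -1.43 in knockout 6 Gy, against -2.46, -3.62, -2.56 and -2.46 in wild type 8.8 Gy. Both groups were far below the sham means of 2.61 in the knockout and 2.79 in wild type, and only 2 wild-type arrays measured it above background. Because it passed the filter through the knockout, the difference of 1.24 (0.40 to 2.09) is given as a description. Cd4, the helper T cell co-receptor, was on the lower side, with 4.38, 3.89, 4.32, 4.19 and 4.17 in knockout 6 Gy, against 4.34, 4.38, 5.43 and 5.31 in wild type 8.8 Gy. Its difference of -0.72 (-1.38 to -0.07) came with 2 wild-type arrays that stood above the rest. Thy1, a surface protein of T cells, differed by 0.27 (-0.47 to 1.0), and the adhesion molecule Cd2 by 0.52 (-0.14 to 1.18).

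Neutrophil and phagocyte genes had medians above 0, and no gene passed the adjusted test. Of 44 neutrophil markers 32 were above 0 (54.6% of all genes were), with a median of 0.28. At an unadjusted p under 0.05 stood 2 higher (Retnlg and Slpi) and 1 lower (Elane), where 3.05% of all genes were higher and 2.2% lower. A gap of this size was present without radiation: the median sham difference of the 44 was 0.34. Their median response was 0.94 in the knockout and 0.87 in wild type, and the median of the interaction was 0.02. Slpi, an inhibitor of neutrophil elastase, had 5.85, 7.11, 6.47, 7.05 and 6.47 in knockout 6 Gy, against 6.09, 5.99, 6.59 and 5.46 in wild type 8.8 Gy, a difference of 0.74 (0.05 to 1.43). Elane, the elastase itself, had 4.48, 3.72, 3.23, 3.14 and 4.61 in knockout 6 Gy, against 4.26, 4.53, 4.78 and 4.72 in wild type 8.8 Gy, a difference of -0.90 (-1.77 to -0.02). Both genes had overlapping ranges, and a link between their differences was not tested. Retnlg, a secreted protein of mature neutrophils, differed by 1.03 (0.08 to 1.98) and is read inside the dim block, as is the chemokine receptor Cxcr2 (1.74, interval -0.04 to 3.51). Among 24 phagocytosis and Fc receptor genes the median was 0.26, running from 0.04 without knockout replicate 4 to 0.35 without knockout replicate 3. Their mean level was 2.19, 2.62, 2.34, 3.21 and 1.49 in knockout 6 Gy, against 1.68, 2.19, 2.53 and 2.29 in wild type 8.8 Gy, with replicate 4 highest and replicate 5 lowest. Markers of Kupffer cells, the macrophages of the liver (11 tested), moved with them, at 1.73, 2.49, 2.12, 3.40 and 0.12 in knockout 6 Gy, against 0.42, 1.72, 2.50 and 1.96 in wild type 8.8 Gy. Their median of 0.62 became -0.02 without knockout replicate 4 and 1.34 without knockout replicate 5. Their part in the result was not tested. Tyrobp, the adaptor that signals for many myeloid receptors, had 6.71, 7.91, 7.22, 7.25 and 7.20 in knockout 6 Gy, against 6.61, 6.81, 7.11 and 6.57 in wild type 8.8 Gy. Without replicate 1 its arrays do not overlap, and the difference was 0.62 (0.04 to 1.21). Cd63, a protein of lysosome membranes, differed by 1.34 (0.41 to 2.27) and is read inside the dim block.

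Platelet markers stood at overlapping levels in both groups, with means above all sham arrays but 1. The mean of 37 tested markers was 5.29, 5.62, 4.83, 5.27 and 5.47 in knockout 6 Gy, against 5.87, 5.31, 4.85 and 5.07 in wild type 8.8 Gy, and 0 had an unadjusted p under 0.05. Sham arrays spanned 3.63 to 4.48 in the knockout and 3.19 to 4.86 in wild type, and the highest of these was above the replicate 3 array of both irradiated groups. With 1 more array left out, the median difference ran from -0.09 to 0.29. Clec1b, the podoplanin receptor of platelets, differed by 0.48 (-0.44 to 1.40), and Nrgn, which binds calmodulin, by -0.50 (-1.39 to 0.39).

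Erythroid markers overlapped at the equitoxic doses and in the sham groups. The mean of 51 tested was 4.04, 3.91, 3.61, 3.63 and 3.56 in knockout 6 Gy, against 4.66, 4.04, 3.02 and 3.16 in wild type 8.8 Gy. Sham arrays spanned 4.27 to 6.18 in the knockout, with replicate 3 highest, and 3.49 to 4.77 in wild type. Their median difference was -0.04 (-0.29 to 0.23 with 1 more array left out), the median response was -1.46 in the knockout and -0.61 in wild type, and the median sham difference, which was not tested, was 0.73, or 0.44 without knockout sham replicate 3. The median of the interaction was -0.84 (0.10 over all genes), -0.54 without knockout sham replicate 3 and -0.47 without wild type 8.8 Gy replicate 1. In the interaction 0 of the 51 passed the adjusted test and 3 were lower at an unadjusted p under 0.05 (11.1% of all genes were). Prdx2, the peroxidase of red cells, had 8.11, 8.51, 8.46, 7.98 and 8.16 in knockout 6 Gy, against 8.74, 8.30, 7.79 and 4.81 in wild type 8.8 Gy, the last of these in the dim block. Tfrc, the transferrin receptor, was in the same block. Cpox, an enzyme of heme synthesis, differed by -0.88 (-2.08 to 0.32).

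Ribosomal protein genes lay almost all above 0. Of 75 tested, 72 were above 0 (54.6% of all genes were), 16 were higher and 0 lower at an unadjusted p under 0.05 (3.05% of all genes were higher), and 16 had all 4 knockout arrays above all 4 wild-type arrays (2.32% of all genes did). With all arrays, 4 were higher at that level. None passed the adjusted test. The mean of the list was 6.82, 7.26, 7.43, 7.06 and 7.0 in knockout 6 Gy, against 7.08, 6.85, 6.86 and 6.49 in wild type 8.8 Gy. The array labelled knockout replicate 1 sat among the wild-type values, and wild type 8.8 Gy replicate 1 overlapped the other knockout arrays. Both groups lay below the sham arrays (7.52 to 7.97 in the knockout, 7.45 to 7.83 in wild type), with a median response of -0.54 in the knockout and -0.93 in wild type. The median difference was 0.37, between 0.29 and 0.44 when 1 more array was left out, and 0.23 under quantile normalization.

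Rpl4, of the large ribosomal subunit, had 5.03, 5.64, 5.82, 5.75 and 5.72 in knockout 6 Gy, against 5.38, 5.03, 5.02 and 5.09 in wild type 8.8 Gy, and sham means of 6.52 in the knockout and 6.32 in wild type. Apart from replicate 1, every knockout array was above every wild-type array, and the difference was 0.60 (0.16 to 1.05). Rps24, Rps12 and Rps27a, of the small subunit, differed by 0.75 (0.21 to 1.29), 0.76 (0.13 to 1.38) and 0.57 (0.08 to 1.05). The translation initiation factor subunit Eif3h, a leading gene of the higher side, had 4.64, 5.31, 5.36, 5.29 and 5.51 in knockout 6 Gy, against 4.97, 4.69, 4.71 and 4.41 in wild type 8.8 Gy, a difference of 0.68 (0.28 to 1.07). Its sham means lay close together, at 5.61 in the knockout and 5.62 in wild type. Probes of ribosomal protein genes can read their many processed pseudogene copies, and the pseudogene Rpl34-ps1 (0.75, interval 0.27 to 1.23) cannot be told from Rpl34.

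The other named genes of the higher side were Sgms1, Cldn25, Zfp534 and Arpc1b. Arpc1b, a subunit of the complex that branches actin filaments, had 4.15, 5.42, 4.88, 5.25 and 5.15 in knockout 6 Gy, against 4.32, 4.25, 4.71 and 3.79 in wild type 8.8 Gy, a difference of 0.91 (0.32 to 1.50). Without replicate 1 the groups do not overlap. Cldn25 (Cldnd1 in RefSeq, a claudin-like membrane protein) differed by 0.83 (0.31 to 1.35), and the zinc finger gene Zfp534 by 0.88 (0.31 to 1.45). Sgms1, which makes sphingomyelin, had 0.54, 2.06, 1.80, 1.69 and 1.06 in knockout 6 Gy, against 0.74, 0.55, 0.76 and -1.08 in wild type 8.8 Gy. Its lowest value is in the dim block, and without the block the difference was 0.97 in place of 1.41.

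**Figure D3:**
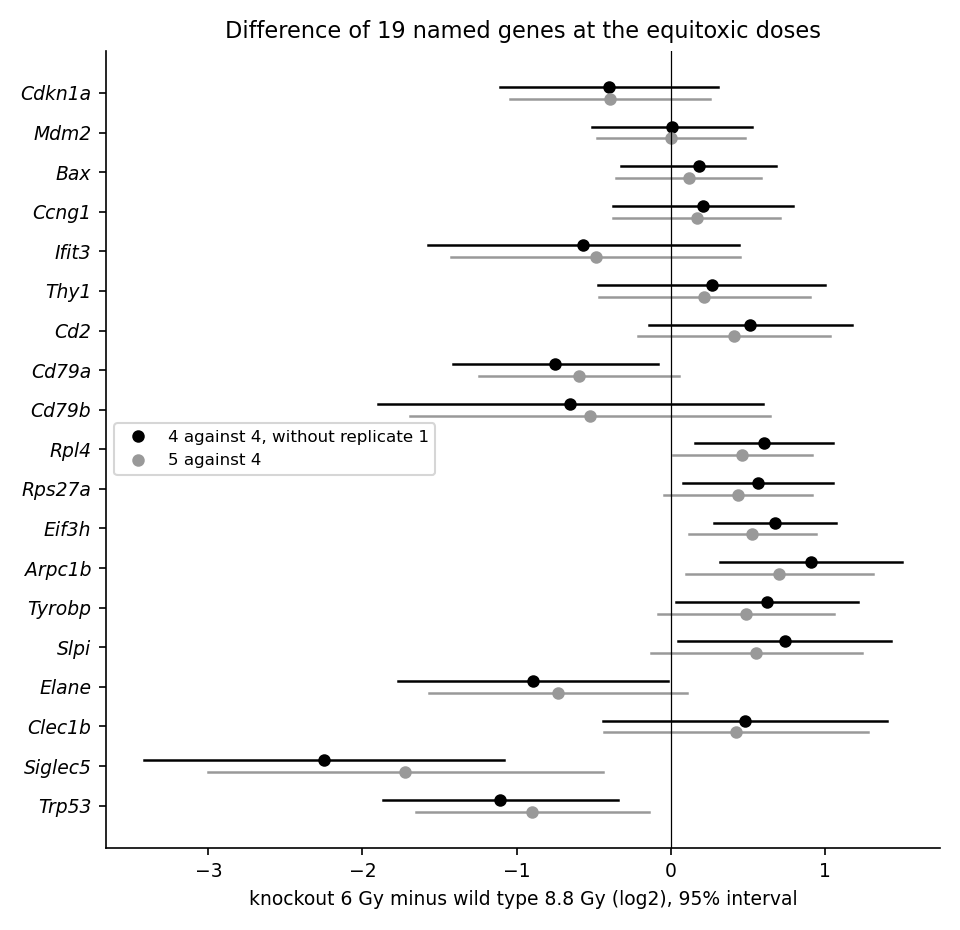
Difference of 19 named genes, knockout 6 Gy minus wild type 8.8 Gy in log2, with 95% intervals from limma. Black is 4 against 4 arrays without the array labelled knockout replicate 1, and grey is 5 against 4. The intervals of Mdm2, Bax and Ccng1 lie within -1 to 1, and the black interval of Siglec5 lies below -1.

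On the lower side, the genes of smallest p were Tnfrsf9, Synpo2l, Hecw1, Mtfr2, Btn1a1 and Igsf9, and what they share is a probe that contains a GT dinucleotide repeat. The sequences below are 30-base windows of 60-base probes (mm9), with the repeat in capitals. They are from Tnfrsf9, Synpo2l and Mtfr2 of these genes and from Hemgn, and are shown because the repeat was found with the lowest values.
Tnfrsf9, probe at chr4:150319582-150319641: taaaatcaGTGTGTGTGTGTGTGTGTGTGT
Synpo2l, probe at chr14:21479051-21479110: atacgcctagggGTGTGTGTGTGTGTGTGT
Mtfr2, probe at chr10:20080996-20081055: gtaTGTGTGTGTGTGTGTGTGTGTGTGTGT
Hemgn, probe at chr4:46407248-46407307: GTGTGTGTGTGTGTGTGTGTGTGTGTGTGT
The motif GTGTGTGTGT, searched on the probe strand, occurs in 137 of 39429 probes (0.347%) and in those of 95 tested genes (0.683%). Of these 95 genes, 81 were below 0, 70 were lower at an unadjusted p under 0.05 (73.7%, where 2.2% of all genes were) and 0 were higher, with a median of -1.40. They made up 19 of the 20 smallest p and 60 of the first 100. The complementary motif ACACACACAC, in the probes of 67 tested genes, had a median of 0.41.

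Of the 95 genes, 58 had all 4 knockout arrays below all wild-type arrays (1.67% of all genes did), and 21 did with replicate 1 as well (0.438% of all genes). Tnfrsf9 (4-1BB, a co-stimulatory receptor of activated T cells) read -0.98, -3.39, -3.36, -1.90 and -1.39 in knockout 6 Gy, against 0.88, -0.75, -0.68 and 0.17 in wild type 8.8 Gy, a difference of -2.41 (-3.47 to -1.36). It was well above background on 3 of 5 knockout arrays (2 of 4 without replicate 1) and on all 4 wild-type arrays, so it passed the filter through wild type and its difference is a description. Hemgn, a nuclear protein of erythroid precursors, read 1.67, 0.90, 0.44, 1.18 and 1.22 in knockout 6 Gy, against 3.12, 1.75, 1.76 and 2.71 in wild type 8.8 Gy, a difference of -1.40 (-2.17 to -0.62). Both genes are among the 21. Among genes with the repeat, 18 have 30 further probes without it that passed the filter: the median difference at those was 0.04, against -1.21 at the repeat probes of the same genes, and 2 of the 30 had an unadjusted p under 0.05. In these 18 genes the low values were found at the repeat probes.

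The mean of the 95 repeat probes was 0.86, 0.17, -0.18, 0.48 and 0.58 in knockout 6 Gy, against 2.13, 0.84, 0.92 and 1.76 in wild type 8.8 Gy. Without replicate 1 the groups are apart. Sham arrays spanned 1.28 to 2.49 in the knockout and 0.63 to 1.91 in wild type, and the wild type 6 Gy arrays 0.42 to 1.08. Within the shared scan day (2 against 4 arrays) the median difference was -1.66. The cause was not tested. Without such probes, 425 genes were higher and 237 lower at an unadjusted p under 0.05.

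**Figure D4:**
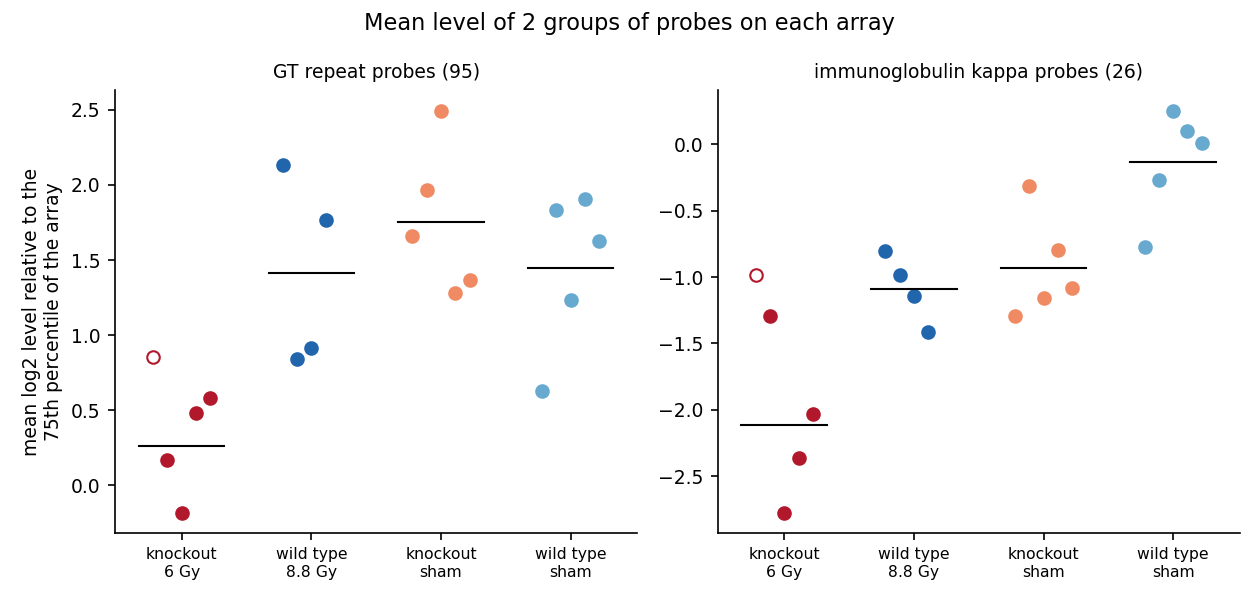
Mean log2 level, relative to the 75th percentile of the array, of 95 GT repeat probes (left) and 26 immunoglobulin kappa probes (right) on each array, with the array labelled knockout 6 Gy replicate 1 as an open point and the group mean without it as a line. The repeat probes sit at -0.18 to 0.86 in knockout 6 Gy and 0.84 to 2.13 in wild type 8.8 Gy, and knockout replicates 3 to 5 lie below all wild type 8.8 Gy arrays for kappa.

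**Figure D5:**
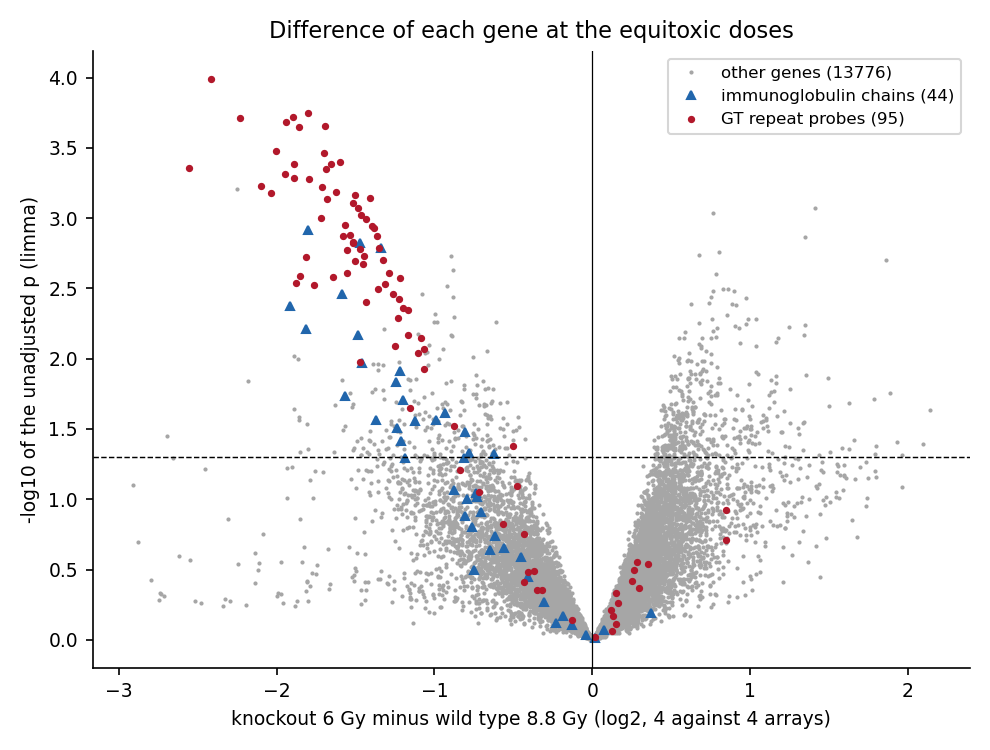
Difference of each gene, knockout 6 Gy minus wild type 8.8 Gy in log2 over 4 against 4 arrays, against the negative log10 of its unadjusted limma p. Red points are the 95 genes with a GT repeat probe, blue triangles the 44 immunoglobulin chains and grey points the other 13776 genes, and the dashed line is at 0.05. No gene passed after adjustment, and the upper left is held mostly by repeat probes.

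With repeat probes set aside after the values were seen, the lower side was led by Siglec5 (Siglecf in RefSeq, a sialic-acid receptor of eosinophils). It had 0.59, -2.70, -2.28, -2.13 and -1.10 in knockout 6 Gy, against 0.53, 0.59, -1.12 and 0.80 in wild type 8.8 Gy, a difference of -2.25 (-3.42 to -1.08). The array labelled replicate 1 read like wild type 8.8 Gy replicate 2. In sham it was well above background on 1 of 5 knockout arrays and on all 5 wild-type arrays. Of the 11 tested eosinophil markers 9 were above 0, among them the eosinophil ribonuclease genes Ear11, Ear2 and Ear10 at 1.14, 0.84 and 0.82. The median of the 11 was 0.51. It became -0.04 without wild type 8.8 Gy replicate 3 and 0.82 without wild type 8.8 Gy replicate 4. Strn4, a scaffold of a phosphatase complex, differed by -0.88 (-1.41 to -0.35), with sham means of -0.10 in the knockout and 0.69 in wild type. Sirt4, a mitochondrial sirtuin, differed by -1.0 (-1.66 to -0.34), and the transcription factor Hivep1 by -0.92 (-1.49 to -0.35). Neither was well above background on any of the 5 knockout sham arrays, while 5 wild-type sham arrays measured Sirt4 and 3 measured Hivep1. Hivep1 was above background on 2 of 4 knockout 6 Gy arrays without replicate 1, so it passed the filter through wild type and its difference is a description. H2-M11, an MHC class Ib gene, differed by -0.89 (-1.45 to -0.32), with sham means of 0.24 in the knockout and 0.09 in wild type.

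Whether the irradiated difference goes beyond the sham difference was tested as an interaction, which no gene passed. Of 13915 genes, 0 (0%) had a limma adjusted p under 0.05, with a smallest of 0.326 without replicate 1 and 0.432 with it. At an unadjusted p under 0.05 stood 14.1% of genes without it, 414 higher (2.98%) and 1546 lower (11.1%), and 262 higher (1.88%) and 1316 lower (9.46%) with it. Without replicate 1, median centring gave 2236 higher and 729 lower and moved the median interaction to 0.56, and leaving out knockout sham replicate 3 gave 190 and 931. With slide as a fixed effect the counts were 126 and 197, and with scan day 136 and 95. The median interaction was 0.10 in both fits as reported. Elane had an interaction of -1.66 and Bard1 of -1.63, each from opposite responses: Elane -0.84 in the knockout and 0.82 in wild type, Bard1 -0.81 in the knockout and 0.82 in wild type. Dapl1 had 1.42, from responses of -4.14 in the knockout and -5.57 in wild type. Knockout sham and wild-type sham arrays were scanned on different days, so scan day and genotype cannot be told apart in the sham groups.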

How the data were processed

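Per the file headers, the deposited files are Agilent Feature Extraction output, 1 file per Cy3 array, whose processed signal is an intensity after the scanner's background subtraction; per the submitters' processing notes the version was 11.5.1. The authors also deposited a table of log2 values of 10214 probes; each column equalled the scanner's log2 intensity plus a constant (at least 98.9% of values within 0.01), and column medians ran over 7.63 to 8.09. It served as an alternative.

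From the 43020 non-control spots of each array, flagged outliers were left out, spots of 1 probe averaged, and log2 taken minus the array's 75th percentile. A gene is its brightest probe. limma 3.58.1 (R 4.3.3) was fitted to 5 group means over 24 arrays (23 without the array labelled knockout 6 Gy replicate 1), two-sided, with Benjamini-Hochberg adjustment over 13915 genes; errors are SE or 95% intervals. The script was tested on simulated data. Replicates are individual mice; the number of arrays limits the precision. Gene symbols are those of the array design, and 10363 tested names have a RefSeq symbol.

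The comparison, the gene lists and the tests were chosen with earlier results of these data known. Named are Parp1, the 6 genes of smallest unadjusted p (4 against 4 arrays) in each direction since none passed, and up to 4 members of a described list by the same order, leaving out clone or transcript identifiers and, among the 6, hepatocyte markers. Trp53, the kappa constant region, Mdm2, Bax, Ccng1, Ifit3, Cd79b, Thy1, Uts2 and the lower genes without a repeat probe were chosen after their values were seen. Alternatives changed the scaling, background correction, filter, probe choice, batch terms and arrays. 1 gene that the rule names is not reported here.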

Additional observations from a re-analysis of the deposited data

Results flagged for a closer look

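Among 72 named genes in each of the 2 groups (144 sets of values), 11 held 1 array that stood apart from the rest by Dixon's test, which flags about 1 set in 20 by chance. Of these, 2 lie in the dim block of wild type 8.8 Gy replicate 4: Sgms1 read -1.08 there (0.55 to 0.76 on the other arrays of its group) and Ddx58 -2.81 (1.87 to 2.37). The array labelled knockout 6 Gy replicate 1 was the lowest of its group for Eif3h at 4.64 (5.29 to 5.51) and for Rpl4 at 5.03 (5.64 to 5.82). Rps24 was highest on knockout 6 Gy replicate 3, at 9.75 (8.47 to 8.74).

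In wild type 8.8 Gy, replicate 1 was highest for Cldn25 at 1.14 (0.42 to 0.43) and for Rps27a at 6.98 (6.59 to 6.65). Replicate 2 was lowest for Dapl1 at -3.62 (-2.56 to -2.46), replicate 3 lowest for Siglec5 at -1.12 (0.53 to 0.80), and replicate 4 lowest for Xrcc4 at -1.78 (-1.24 to -1.16) and highest for Ifit3 at 3.28 (2.82 to 2.89).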

How the results depend on the processing

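The count of 0 genes past limma's adjusted test held for the 5 against 4 comparison under every setting run. Without the filter on dim probes, 1 gene passed in the 4 against 4 comparison and 1 in the interaction, Uts2 both times (-3.44 and -4.54). The interaction had 2 with a fixed effect of slide and 2 with one of scan day (A_55_P2015934 and Tm9sf2 each time), and 0 to 3 when 1 array was left out, the 3 being Elk4, Mcf2l and Rims1 without knockout 6 Gy replicate 5; no array left out gave a call in the other 2 comparisons. Median centring moved the median of all genes to 0.32, with 1613 higher and 143 lower at an unadjusted p under 0.05 (4 against 4), and the hepatocyte level as a covariate gave 496 and 1196; the cause was not tested. The interaction within 1 scan day was not run, since that day holds no sham array. In the normexp alternative, spots with a flagged background were left out. Left out after seeing the data, the GT repeat probes and the dim blocks gave 662 and 666 genes at that level, against 730.

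Replicate numbers do not pair the arrays (correlations of same-numbered arrays -0.07, -0.06, 0.52 and 0.34); with a replicate block 0 genes passed in each comparison and 502 had an unadjusted p under 0.05 (4 against 4). Of 1769 repeats over the named genes, none of which passed the adjusted test as reported, 25 changed sign. Mdm2 became -0.080 (quantile), -0.032 (the authors' deposited table), -0.049 and -0.00021 (slide, fixed and random), -0.15 (scan day as a block, and within that day), -0.12 (hepatocyte covariate) and -0.19 to 0.19 with 1 array left out. Parp6 became 0.053 (median centring) and 0.020 (normexp), Parp10 -0.011 and Bax -0.093 (slide). By scan day, as a block and within the shared day, Cxcr5 became 0.012, Spib 0.10 and Cd79b 0.31. With 1 array left out Thy1 ran over -0.027 (without wild type 8.8 Gy replicate 3) to 0.48, Rsad2 over -0.37 to 2.06 and Prdx2 over -4.37e-05 to 1.31; the low ends of Rsad2 and Prdx2 came without wild type 8.8 Gy replicate 4, and equally without the dim blocks. The median of the B cell markers changed sign within the shared scan day, to 0.07, and under median centring, to 0.05. Median centring moved all genes to 0.32, and the B cell median relative to all genes was -0.26 with it and as reported.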

Other observations

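Mitochondrial and lymphocyte-linked lists not described above also gave no gene past the adjusted test. Of 59 oxidative phosphorylation genes, which build the respiratory chain, 53 were above 0 with a median difference of 0.21, 0.11 under quantile normalization, 0.56 within the shared scan day, -0.11 without knockout 6 Gy replicate 3 and 0.43 without knockout 6 Gy replicate 5, and 0 had an unadjusted p under 0.05. The median response was -0.26 in the knockout and -0.49 in wild type. Heart muscle markers were highest on knockout 6 Gy replicate 3, and their part in the oxidative phosphorylation median was not tested. Antigen presentation by MHC class II, a job of B cells, dendritic cells and macrophages, gave a median difference of 0.10 over 8 genes (-0.26 without knockout 6 Gy replicate 4, 0.34 without replicate 5), from responses of -0.82 in the knockout and -1.65 in wild type and a sham gap of -0.69. Heat shock and chaperone genes (28 tested) had a median of 0.08 (0.03 to 0.19 with 1 more array left out), with responses of -0.61 in the knockout and -1.04 in wild type.

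Cell cycle genes (33 tested) had a median difference of -0.04, Bcl2 family genes (14) 0.05, NK and cytotoxic genes (21) 0.10, monocyte markers (34) 0.04, NF-kappaB and inflammatory genes (23) -0.10 and antioxidant enzymes (27) -0.07, and each of these medians changed sign with 1 more array left out. Uts2, the precursor of urotensin II, is the gene that passed without the filter on dim probes; it was chosen after its value was seen. Hepatocyte markers that were tested (19) had a median difference of -1.80 without replicate 1 and -1.17 with it, running from -3.34 without wild type 8.8 Gy replicate 1 to -0.48 without knockout 6 Gy replicate 2, none at an unadjusted p under 0.05, with a sham gap of -1.82 between knockout and wild type.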
